A study of Mus musculus with 208 samples.

Results

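Transcription factor 4 (Tcf4), sortilin (Sort1), Slc27a1, Sbf1, Olfml2b, Psd3 and Abr are among the genes that the study singled out as altered in both RNA and H3K27ac in the hypothalamus when mice exposed to morphine around birth met lipopolysaccharide (LPS), a bacterial cell wall component that triggers acute inflammation. These 7 of the 46403 genes listed in every count table were followed here through 4 brain regions. They were chosen by the study on the hypothalamic difference between MOR-LPS and SAL-LPS, so their values in that contrast are a description and carry no test.

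The animals were C57BL/6NTac mice. Dams received morphine at 10 mg/kg/day or saline from an implanted pump, and the pups, moved to drug-naive surrogate dams at birth, were injected with morphine at 10 mg/kg or saline from postnatal day 1 to 14. As adults they were given LPS at 2 mg/kg or saline and tissue was taken 2 h later, which makes 4 conditions, written as early exposure then adult challenge: saline at both times (SAL-SAL), morphine then saline (MOR-SAL), saline then LPS (SAL-LPS), and morphine then LPS (MOR-LPS). About 5000 neuronal nuclei per library were sorted on the neuronal nuclear protein NeuN, so the RNA is nuclear, each library being 1 region of 1 animal. All 4 groups share the strain and the injections, and no transgene was used. Libraries of several regions that carry the same condition, sex and replicate label were taken as 1 animal, and the 71 animals so counted gave 208 libraries: 51 from hypothalamus (11 SAL-SAL, 14 MOR-SAL, 12 SAL-LPS, 14 MOR-LPS), 55 from hippocampus (13, 12, 14 and 16 in the same order), 48 from prefrontal cortex (10, 12, 10 and 16) and 54 from striatum (13, 8, 15 and 18). Per the study's methods, litters were nested within early exposure, so exposure cannot be told apart from litter. The replicate labels hold a leading number and a second one, and the labels do not say what the leading number stands for: there are 18, 17 of them hold 1 sex, and none holds both early exposures. Because the same animals recur, the regions are not independent of one another.

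Total counts ranged from 7673 to 92945090 per library, and the median was 5543589 in the hypothalamus against 9184251 in the hippocampus. Of the 208 libraries, 8 had less than 0.5 of their region's median total, and 9 carried levels of Y-linked genes that went against their labelled sex. In the hypothalamus these were the female-labelled 12-1, 15-0 and 10-0, with Y-linked levels of 5.09, 6.36 and 6.63 as log2(CPM + 1). The lowest labelled male there was at 7.15. The same libraries also held 3834, 2942 and 2307 counts of Xist, a gene counted mainly in female libraries. The female-labelled MOR-LPS library 18-1 held 2 counts of Xist and a Y-linked level of 0.33. The cause of these patterns was not tested. Some hypothalamic libraries stood apart in Slc17a7, which encodes the vesicular glutamate transporter VGLUT1 of cortical and hippocampal excitatory neurons and is used here as a gauge of cortical tissue: 7 of 51 exceeded 100 normalized CPM (counts scaled to library size), 6 of them MOR-LPS and 1 SAL-LPS. The SAL-LPS library 1-4 (leading number, then the second) held only 7673 counts and listed 6 of the 7 genes at 0, which at that depth allows up to 391 CPM of each. In bulk nuclei, fewer cells of a type and less RNA per cell cannot be told apart.

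The 7 proteins work in different parts of the cell. Tcf4 is an E protein, a basic helix-loop-helix transcription factor that pairs with tissue-specific partners such as the NeuroD proteins, binds E-box DNA and is held off DNA by the ID proteins. Sort1 is a sorting receptor of the VPS10-domain family that carries neurotrophins and other ligands between the Golgi, endosomes and the cell surface. Sbf1 is a myotubularin relative without phosphatase activity, Psd3 is an exchange factor that activates the small GTPase ARF6, and Abr is a regulator of small GTPases closely related to Bcr. Slc27a1 is a long-chain fatty acid transport protein, and Olfml2b is a secreted protein of the olfactomedin family. LPS sensed in the periphery reaches the hypothalamus through cytokines and afferent nerves, and that region drives fever, sickness behavior and the stress axis.

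Because Tcf4 encodes a protein that binds the E-box CANNTG, the 250 bases before the start site are shown for 3 of the genes, from RefSeq on GRCm38.p6, written along the gene's own strand with every CANNTG in capitals. CANNTG reads the same on both strands. Slc27a1 has 3 start sites in that table, and the first listed is shown. Abr is also in that table, with several start sites, and was neither shown nor searched. The windows are chr1:170644282-170644531 (+), chr15:89315312-89315561 (-) and chr8:71568621-71568870 (+).
Olfml2b: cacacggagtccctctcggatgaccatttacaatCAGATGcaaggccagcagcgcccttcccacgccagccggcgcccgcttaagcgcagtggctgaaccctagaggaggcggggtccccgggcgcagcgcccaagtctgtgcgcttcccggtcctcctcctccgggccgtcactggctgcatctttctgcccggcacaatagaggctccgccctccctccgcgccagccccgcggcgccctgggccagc
Sbf1: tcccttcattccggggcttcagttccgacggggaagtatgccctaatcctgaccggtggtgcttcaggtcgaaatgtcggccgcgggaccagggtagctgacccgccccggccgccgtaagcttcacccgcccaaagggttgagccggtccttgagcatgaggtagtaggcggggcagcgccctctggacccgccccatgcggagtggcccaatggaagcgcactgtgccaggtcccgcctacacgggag
Slc27a1: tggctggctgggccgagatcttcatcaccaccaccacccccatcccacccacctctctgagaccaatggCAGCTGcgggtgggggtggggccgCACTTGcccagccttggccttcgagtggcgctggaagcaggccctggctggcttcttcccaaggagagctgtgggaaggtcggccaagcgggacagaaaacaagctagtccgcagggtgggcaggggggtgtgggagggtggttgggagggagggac

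Olfml2b had 1 match, Sbf1 had 0 and Slc27a1 had 2, of which 1 was CAGCTG. Of the 27025 windows of the same length in the table, 66.04% held at least 1 CANNTG and 12.8% held CAGCTG, which is 1 of the forms that CANNTG takes. The GC content of the 3 windows was 69.6%, 66% and 66.4%, against a median of 52% over all windows. Letters alone do not show binding.

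The genes lie on 6 chromosomes of the mm10 build: Tcf4 at chr18:69343356-69689079, Sort1 at chr3:108284082-108361511, Slc27a1 at chr8:71568882-71587302, Psd3 at chr8:67689082-68212027, Sbf1 at chr15:89288236-89315311, Olfml2b at chr1:170644532-170682789 and Abr at chr11:76416734-76622314. All are protein coding. Exons of Sort1 overlap those of the opposite-strand gene Gm12523 over 338 bases, exons of Psd3 overlap Gm15991 over 114 bases and exons of Abr overlap Gm26780 over 28 bases, so reads there could belong to either gene if strand was not used in counting.

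In the hypothalamus the question was how an early morphine exposure altered the state reached 2 h after LPS. All 7 genes had a higher median in MOR-LPS than in SAL-LPS, and their fitted log2 differences ran from 0.52 to 2.44 (median 0.67, against 0.0091 over the 28859 genes tested), in an edgeR quasi-likelihood fit on condition and sex. Of the 7, 6 passed an adjusted p of 0.05, where 1.03% of all genes passed in either direction and 0.447% passed as higher, and nothing is read from that count because the same contrast chose the genes. With filterByExpr, which drops more of the scarce genes, or without the libraries against their labelled sex, 0 of 7 passed by edgeR. The last gene inside the threshold was Abr, with an edgeR adjusted p of 0.0484, and the first outside was Sbf1 at 0.0666. DESeq2 passed all 7, against 0.173% of all genes. All values below are CPM after TMM normalization, given as lowest, median and highest library.

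Tcf4 stood at 53.9, 84 and 226 CPM in SAL-LPS and at 76.5, 191 and 730 CPM in MOR-LPS. The 53.9 CPM is 1 count in the shallow library 1-4. The log2 fold change (log2FC) of Tcf4 was 1.44 ± 0.31 (SE, n = 12 and 14). The groups overlapped: 6 of the 14 MOR-LPS libraries exceeded every SAL-LPS library, and the other 8 lay between 76.5 and 195 CPM.

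Among the trafficking genes, Sort1 stood at 0, 135 and 181 CPM in SAL-LPS and at 118, 210 and 411 CPM in MOR-LPS, a log2FC of 0.74 ± 0.17 (SE). Sbf1 stood at 0, 182 and 307 CPM against 177, 283 and 483 CPM, a log2FC of 0.54 ± 0.16 (SE). Psd3 stood at 0, 108 and 154 CPM against 93.7, 175 and 247 CPM, a log2FC of 0.67 ± 0.17 (SE). The groups overlapped for each, with 8, 5 and 7 of the 14 MOR-LPS libraries above every SAL-LPS library, and each 0 came from the shallow library 1-4.

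Slc27a1, the fatty acid transport gene, stood at 0, 71.8 and 111 CPM in SAL-LPS and at 55.2, 128 and 187 CPM in MOR-LPS, a log2FC of 0.64 ± 0.17 (SE), and 8 MOR-LPS libraries exceeded all of SAL-LPS. Olfml2b, the secreted olfactomedin protein, was scarce, at 0, 3.94 and 5.59 CPM against 1.09, 9.45 and 131 CPM. Its log2FC of 2.44 ± 0.59 (SE) was the widest of the 7, and 3 MOR-LPS libraries at 56.3, 71.1 and 131 CPM stood far from the other 11, which did not exceed 14.7 CPM. Abr, the GTPase regulator, stood at 0, 294 and 332 CPM against 262, 395 and 647 CPM, a log2FC of 0.52 ± 0.14 (SE), with 10 MOR-LPS libraries above every SAL-LPS library.

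**Figure D1:**
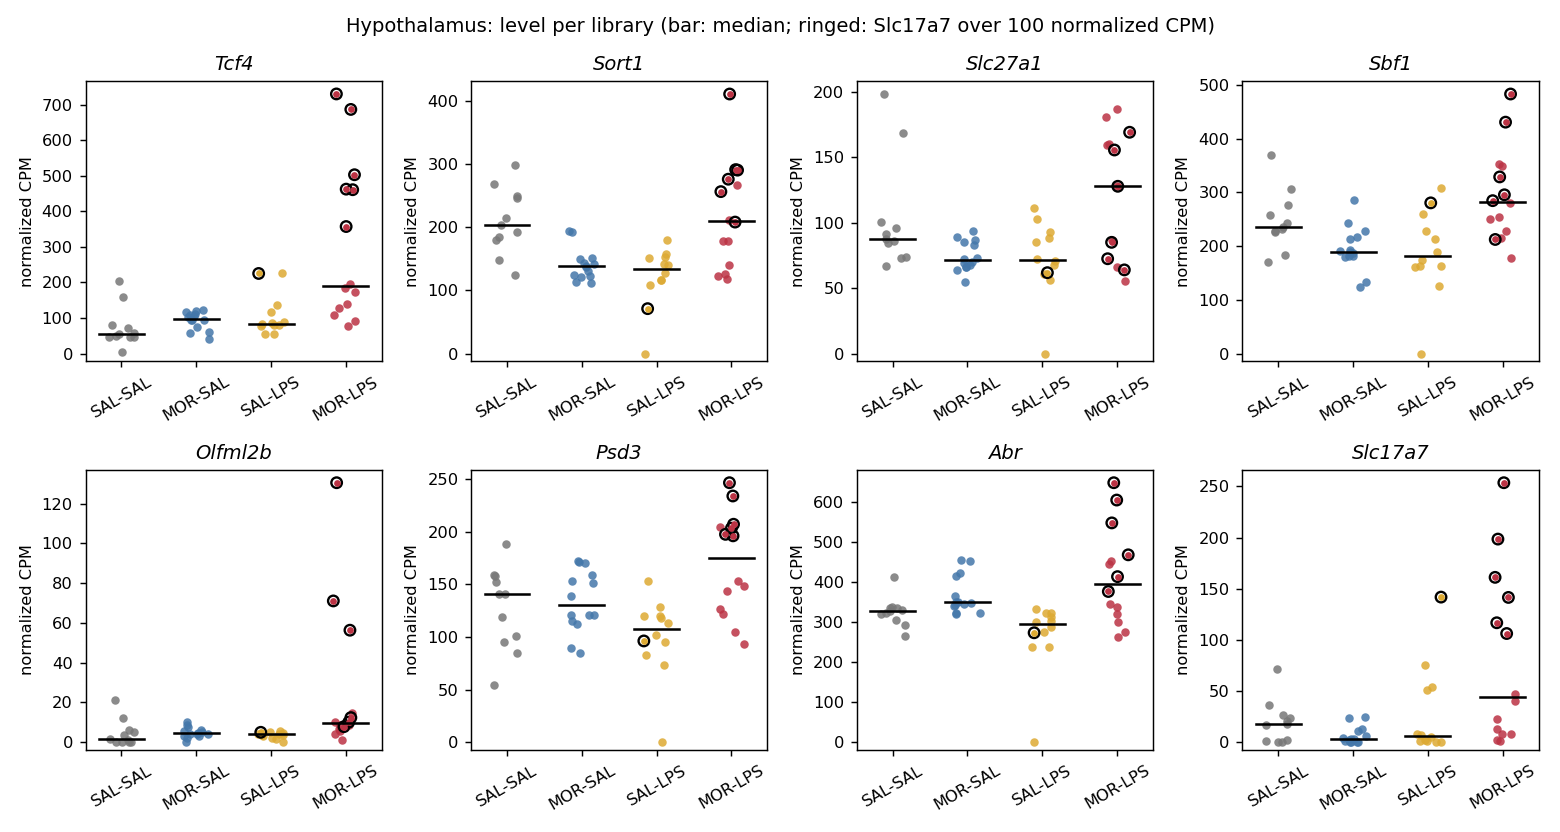
Normalized CPM of each of the 7 genes and of Slc17a7 in every hypothalamic library, by condition, with a bar at the median and a ring around the 7 libraries over 100 CPM of Slc17a7. The ringed MOR-LPS libraries are the top 6 for Tcf4, whereas for Slc27a1 they are spread from 64.0 to 169 CPM through the group.

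The MOR-LPS libraries with high Tcf4 were also those with high Slc17a7. In the 6 MOR-LPS libraries over 100 CPM of Slc17a7 (106 to 254 CPM), Tcf4 ran from 357 to 730 CPM, Psd3 from 196 to 247 CPM and Sort1 from 208 to 411 CPM. In the other 8, with Slc17a7 between 1.68 and 47.2 CPM, Tcf4 ran from 76.5 to 195 CPM, Psd3 from 93.7 to 204 CPM and Sort1 from 118 to 267 CPM. Tcf4 did not overlap between those sets of libraries, which were separated by Slc17a7 after the values were seen and were not tested against each other. The share of all genes that do not overlap between them is not given, so this is not read as a trait of Tcf4. The SAL-LPS libraries 1-0 and 1-2, with Slc17a7 at 142 and 75.8 CPM, were also the top of their group for Tcf4, at 225 and 226 CPM. Slc17a7 itself stood at 0, 5.94 and 142 CPM in SAL-LPS and at 1.68, 43.8 and 254 CPM in MOR-LPS, and its log2FC of 1.72 ± 0.76 (SE) did not pass the edgeR test (adjusted p = 0.259).

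The hypothalamic libraries held other signs of tissue makeup that moved with the conditions. The hypothalamic markers (10 genes, among them Slc17a6 for VGLUT2, Sim1, Pomc and Avp) summed to medians of 235 CPM in SAL-LPS and 287 CPM in MOR-LPS, ranging from 0 to 527 and from 18.2 to 424 CPM. The 0 came from the shallow library 1-4. The 7 cortical excitatory markers summed to medians of 75.2 and 121 CPM, with ranges of 40.4 to 207 and 46.3 to 496 CPM. The 5 astrocyte markers summed to 18.9, 25.1 and 30.4 CPM at the median in SAL-SAL, MOR-SAL and SAL-LPS and to 163 CPM in MOR-LPS, where they ranged from 15.7 to 720 CPM. No marker list held a gene at 0 in every hypothalamic library. None of the 5 astrocyte and none of the 7 cortical excitatory markers passed the edgeR test between MOR-LPS and SAL-LPS (5 of each had an unadjusted p under 0.05, against 13.9% of all genes), and of the 3 dentate and hippocampal markers (Prox1, Zbtb20, Wfs1) Zbtb20 passed, with a log2FC of 1.09 ± 0.30 (SE) and an edgeR adjusted p of 0.0499.

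How far the 7 genes moved with these levels was described by adding them to the fit, in the contrast that chose the genes. With Slc17a7 as a covariate, log2FC of Tcf4 went from 1.44 to 0.89 ± 0.29 (SE), of Olfml2b from 2.44 to 1.58 ± 0.66 and of Sort1 from 0.74 to 0.56 ± 0.18. Slc27a1 went from 0.64 to 0.71 ± 0.18 (SE). The remaining 3, Sbf1, Psd3 and Abr, were at 0.43, 0.50 and 0.44.

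The other settings were chosen after the values were seen. Without the 7 libraries over 100 CPM of Slc17a7, log2FC was 0.41 ± 0.27 (SE) for Tcf4, 0.30 ± 0.17 for Sort1, 0.26 ± 0.15 for Abr and 0.65 ± 0.20 for Slc27a1, and 0 of 7 passed the edgeR threshold. With the summed astrocyte markers as a covariate, Sort1 was at 0.73 ± 0.19 (SE) and Slc27a1 at 0.40 ± 0.17. With both covariates Tcf4 was at 0.26 ± 0.26 (SE), Olfml2b at 0.57 ± 0.66 and Sort1 at 0.51 ± 0.20, all 7 stayed above 0, and 0 of 7 passed by edgeR. All 7 log2FC were thus positive under these 4 settings, and the share of cortical or glial tissue in them was not tested beyond these fits.

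**Figure D2:**
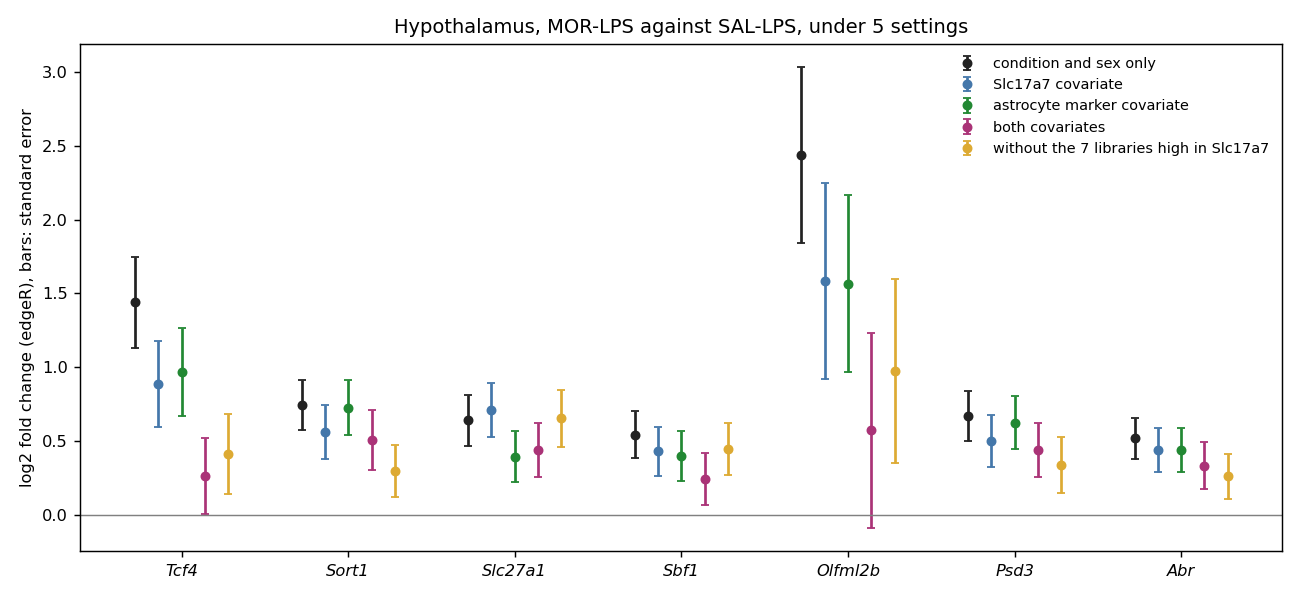
Log2FC of MOR-LPS against SAL-LPS in the hypothalamus, with standard errors as bars, for the fit on condition and sex and for 4 others: with Slc17a7, with astrocyte markers, with both, and without the 7 libraries high in Slc17a7. Tcf4 goes from 1.44 to 0.26 with both covariates, while Slc27a1 stays at 0.65 without the libraries high in Slc17a7 and goes to 0.40 with the astrocyte markers.

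The relation with Slc17a7 was then described library by library. Over the 48 hypothalamic libraries with at least 0.5 of the median total, and with both values on a log2(CPM + 1) scale, Tcf4 followed Slc17a7 with Pearson's r = 0.52 and Spearman's rho = 0.33 over all conditions together, and r was 0.42 without the 2 libraries farthest from the median Slc17a7. Sort1 gave r = 0.55 and rho = 0.58 and Sbf1 gave r = 0.55 and rho = 0.53, with r of 0.45 and 0.45 without those 2 libraries. Psd3, Olfml2b and Abr gave r of 0.43, 0.36 and 0.36 and rho of 0.38, 0.33 and 0.19, and r was 0.33, 0.25 and 0.18 without those 2 libraries, while Slc27a1 gave r = 0.16 and rho = 0.15. The median r with Slc17a7 over 13222 expressed genes was -0.045.

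The pooled relation includes the difference between conditions, since the genes were chosen as high in MOR-LPS, where Slc17a7 was high too, so those r are a description with no test. After centring on condition and sex, Tcf4 (r = 0.41, rho = 0.35, two-sided permutation p = 0.00362 and 0.0148, adjusted p for r = 0.0145 and for rho = 0.056 over 28 relations) passed for r and not for rho, and Sort1 (r = 0.37, rho = 0.48, permutation p = 0.00908 and 0.00044, adjusted p for r = 0.0282 and for rho = 0.00246) passed for both, with r of 0.35 and 0.53 without the 2 farthest libraries, and Slc27a1 was at r = -0.11. Sbf1, Psd3, Abr and Olfml2b did not pass after centring, at r of 0.33, 0.31, 0.29 and 0.21 (adjusted p for r = 0.0599, 0.0777, 0.0946 and 0.278). Within the 14 MOR-LPS libraries, 6 of the 7 genes had r between 0.60 and 0.72 and Slc27a1 had r = -0.23. Those 14 also chose the genes and enter the centred values, so the p-values of both are a description. The share of all genes with such r is not given. Within the 34 libraries of the other 3 conditions r ran from -0.11 to 0.21 and 0 of 7 relations passed (smallest permutation p for r = 0.239). In both subsets the adjusted p was taken over 7 relations, and it ranged from 0.0180 to 0.431 for r in MOR-LPS. Sort1 in those 34 was at r = 0.15 and rho = 0.33 (permutation p = 0.405 and 0.0581, adjusted p for rho = 0.407), and r was 0.35 without 2 libraries. The difference between the subsets was not tested. The 3 libraries under 0.5 of the median total changed r for 5 of the 7 genes: over all 51 libraries r was 0.072 for Sort1, 0.055 for Sbf1, 0.069 for Psd3, -0.041 for Abr and -0.082 for Slc27a1, with rho at 0.43, 0.45, 0.38, 0.17 and 0.023.

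**Figure D3:**
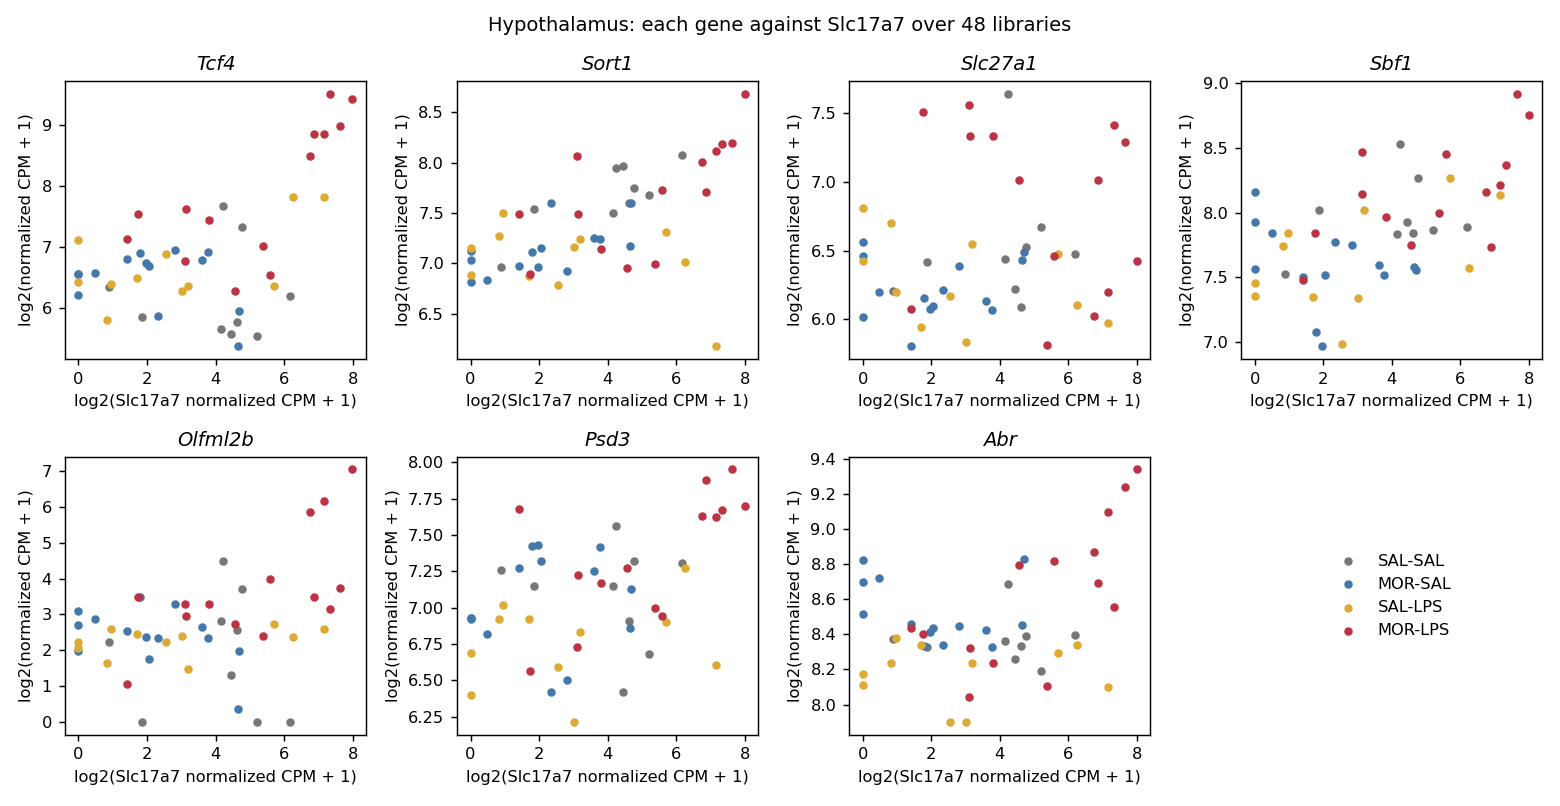
Each of the 7 genes against Slc17a7 over the 48 hypothalamic libraries with at least 0.5 of the median total, both as log2(normalized CPM + 1), colored by condition. MOR-LPS libraries with the most Slc17a7 sit at the top right for Tcf4, Sort1, Psd3 and Abr, and Slc27a1 shows no such slope (r = 0.16).

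Morphine without LPS is the hypothalamic comparison that shares no library with the choice of genes. Between MOR-SAL and SAL-SAL, 0 of the 7 passed the edgeR test, where 1.44% of all genes passed. An unadjusted p under 0.05 was reached by 3 of the 7, against 17.3% of all genes, and DESeq2 passed 1, against 1.51%. Sort1 had the smallest adjusted p: it stood at 124, 204 and 299 CPM in SAL-SAL and at 112, 138 and 194 CPM in MOR-SAL, with every one of the 14 MOR-SAL libraries below the SAL-SAL median. The 299 CPM came from library 4-3, which held only 160755 counts. The log2FC of Sort1 was -0.57 ± 0.17 (SE; edgeR adjusted p = 0.0620), and it was the gene that DESeq2 passed. By edgeR it passed when library 1-1 or 1-3 was left out (-0.61 and -0.63, adjusted p = 0.0482 and 0.0345) and when all libraries with the leading number 1 were (-0.69, adjusted p = 0.00841).

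The other 6 gave smaller or less even differences in that contrast. Sbf1 and Slc27a1 were at a log2FC of -0.35 ± 0.16 and -0.40 ± 0.17 (SE), each with 12 of 14 MOR-SAL libraries at or below the SAL-SAL median. Tcf4 stood at 4.34, 53.7 and 204 CPM in SAL-SAL and at 40.3, 98.4 and 123 CPM in MOR-SAL, and although 13 of 14 MOR-SAL libraries exceeded the SAL-SAL median its log2FC was 0.28 ± 0.30 (SE; edgeR adjusted p = 0.717). That log2FC was 0.55 without library 4-1 and 0.20 without library 4-3, whose 4.34 CPM is 1 count. Abr, Psd3 and Olfml2b were at 0.17 ± 0.14, 0.069 ± 0.17 and -0.10 ± 0.56 (SE). The value of Olfml2b rested on SAL-SAL library 4-1, without which it was 0.64, and 13 of 14 MOR-SAL libraries exceeded the SAL-SAL median of 1.46 CPM. The median log2FC of the 7 was -0.095, against 0.070 over all genes tested, and the groups overlapped for every gene. Slc17a7 in these groups stood at 0, 17.8 and 71.5 CPM in SAL-SAL and at 0, 3.03 and 24.9 CPM in MOR-SAL, and markers of other cells and neighboring tissue also differed, with the oligodendrocyte gene Mobp at a log2FC of -2.20 ± 0.46 (SE; edgeR adjusted p = 0.00739; all 5 oligodendrocyte markers were lower at an unadjusted p under 0.05), the thalamic gene Prkcd at a log2FC of -4.17 ± 0.66 (SE; edgeR adjusted p = 0.000241) and the choroid plexus gene Ttr at -6.02 ± 0.96 (SE; edgeR adjusted p = 0.000241). Their part in the result was not tested.

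The 2 LPS responses and their difference use the libraries that chose the genes and are given as a description. After saline, SAL-LPS against SAL-SAL passed 0 of 7 by edgeR, where 0.246% of all genes passed, with 2 at an unadjusted p under 0.05 (14% of all genes) and 1 by DESeq2 (0.409%). Of the 7, 6 log2FC were below 0, from -0.18 for Abr to -0.67 ± 0.18 (SE) for Sort1. Among the markers, the choroid plexus gene Ttr was at -5.88 ± 1.07 (SE; edgeR adjusted p = 0.00906) in that contrast. The thalamic gene Rora was at -1.51 ± 0.29 (SE; edgeR adjusted p = 0.0118), and the part of either was not tested. After morphine, MOR-LPS against MOR-SAL passed 5 of 7 (6.27% of all genes passed, and 20.5% had an unadjusted p under 0.05), Tcf4 at 1.73 ± 0.29 (SE), Olfml2b at 2.16 ± 0.53, Sort1 at 0.64 ± 0.16, Slc27a1 at 0.63 ± 0.16 and Sbf1 at 0.59 ± 0.15, while Psd3 and Abr were at 0.35 and 0.16. Within the same contrast Slc17a7 was at 3.35 ± 0.76 (SE; edgeR adjusted p = 0.00569) and the astrocyte gene Gfap at 5.21 ± 0.74 (SE; edgeR adjusted p = 1.36e-05). With Slc17a7 and the astrocyte markers both as covariates 0 of these 5 calls remained by edgeR, and Tcf4 was at 0.013 ± 0.28 (SE) and Olfml2b turned to -0.23. Without the libraries high in Slc17a7 0 of 7 passed by edgeR as well, with Slc27a1 at 0.66 ± 0.19 (SE) and Tcf4 at 0.53 ± 0.25. With the leading number of the replicate label as a block 1 of the 5 calls remained, Tcf4 at 1.41 ± 0.27 (SE; edgeR adjusted p = 0.000762).

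The difference between the 2 LPS responses holds the contrast that chose the genes, so its calls support nothing. It was past the edgeR threshold for Sort1 (1.31 ± 0.24, SE), Slc27a1 (1.04 ± 0.24) and Sbf1 (0.89 ± 0.22), where 3.8% of all genes passed and 15.6% had an unadjusted p under 0.05. For Sort1 the medians of the 4 groups show its form: 204 CPM in SAL-SAL, 138 in MOR-SAL, 135 in SAL-LPS and 210 in MOR-LPS. At the median, each single exposure thus stood below the saline group and the combined one near it. Slc27a1 at 88, 71.3, 71.8 and 128 CPM and Sbf1 at 236, 190, 182 and 283 CPM had the same order of single against combined exposure. Tcf4, at 53.7, 98.4, 84 and 191 CPM, and Olfml2b, at 1.46, 4.48, 3.94 and 9.45 CPM, were higher at the median in every exposed group than in SAL-SAL. With that block Sort1 alone was past the threshold (1.20 ± 0.27, SE).

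In the other 3 regions none of the 7 genes passed by edgeR. Across the 5 contrasts in hippocampus, prefrontal cortex and striatum, edgeR passed 0 of 7 in each of 15 tests, with 0 to 3 genes at an unadjusted p under 0.05, and DESeq2 passed 0 of 7 in 14 of them and 2 of 7 between MOR-LPS and MOR-SAL in the striatum, where it passed 3.06% of all genes. For MOR-LPS against SAL-LPS the share of all genes passing was 2.73% in the hippocampus, 0.0046% in the prefrontal cortex and 0% in the striatum. For SAL-LPS against SAL-SAL it was 2.55%, 0% and 0.0128% in the same order, for MOR-LPS against MOR-SAL 0.467%, 0.0184% and 1.39%, and for the interaction 2.35%, 1.78% and 0.00854%. For MOR-LPS against SAL-LPS the median log2FC of the 7 in the same order was 0.059, 0.16 and 0.28, against -0.00043, 0.064 and 0.029 over all genes tested. The share of all genes at an unadjusted p under 0.05, in hippocampus, prefrontal cortex and striatum, was 17%, 13% and 11.2% for MOR-LPS against SAL-LPS and 10.3%, 10.1% and 11.5% for MOR-SAL against SAL-SAL. It was 17.5%, 12.7% and 11.7% for SAL-LPS against SAL-SAL, 14.3%, 13.2% and 17.8% for MOR-LPS against MOR-SAL, and 12.8%, 11.5% and 14.8% for the interaction. The difference between regions was not tested.

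In the hippocampus, Tcf4 stood at 490, 1440 and 2249 CPM in SAL-LPS and at 888, 1474 and 2005 CPM in MOR-LPS, a log2FC of 0.10 ± 0.17 (SE). Sort1 stood at 187, 253 and 359 CPM against 196, 262 and 335 CPM, a log2FC of -0.021 ± 0.10 (SE). Olfml2b stood at 12.2, 53.3 and 155 CPM against 50.8, 75.6 and 106 CPM, a log2FC of 0.42 ± 0.25 (SE), and Slc27a1 at 41.9, 48.8 and 61.1 CPM against 23.9, 56.7 and 124 CPM, a log2FC of 0.29 ± 0.16 (SE). The groups overlapped for all 7, the largest edgeR adjusted p being 0.963 (Sort1) and the smallest 0.348 (Slc27a1). Between MOR-SAL and SAL-SAL 0 of 7 passed by edgeR (0 at an unadjusted p under 0.05, 0 by DESeq2) and 0% of all genes did, with Psd3 at -0.31 ± 0.19 (SE) and Olfml2b at 0.45 ± 0.28 (SE) the farthest from 0.

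In the prefrontal cortex the log2FC of MOR-LPS against SAL-LPS ran from -0.14 ± 0.27 (SE) for Tcf4 to 0.42 ± 0.79 (SE) for Olfml2b. Tcf4 stood at 179, 523 and 1087 CPM in SAL-LPS and at 174, 461 and 897 CPM in MOR-LPS, so the groups covered almost the same range. Slc17a7 varied widely there, from 0.452 to 603 CPM over the 48 libraries. Between MOR-SAL and SAL-SAL the 7 ran from -0.23 ± 0.18 (SE; Psd3) to 0.26 ± 0.85 (SE; Olfml2b), with 0 of 7 passing by edgeR (0 at an unadjusted p under 0.05, 0 by DESeq2), as did 0% of all genes.

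In the striatum 6 of the 7 log2FC were above 0 for MOR-LPS against SAL-LPS, and 0 passed by edgeR (2 at an unadjusted p under 0.05, 0 by DESeq2). The oligodendrocyte markers summed to medians of 334 CPM in SAL-LPS and 464 CPM in MOR-LPS, ranging from 181 to 1260 and from 159 to 4240 CPM. The astrocyte markers summed to medians of 25.9 and 43.2 CPM and the neuronal markers to 4399 and 4400 CPM. Their part in the result was not tested. Tcf4 stood at 130, 197 and 343 CPM in SAL-LPS and at 170, 285 and 595 CPM in MOR-LPS, and its log2FC was 0.52 ± 0.23 (SE; adjusted p = 0.336 by edgeR). Sbf1 stood at 80.2, 107 and 162 CPM against 88.4, 130 and 374 CPM, a log2FC of 0.33 ± 0.14 (SE; edgeR adjusted p = 0.308), and 15 of 18 MOR-LPS libraries exceeded the SAL-LPS median. Olfml2b was at 0.88 ± 0.45 and Slc27a1 at 0.28 ± 0.14 (SE), while Sort1 was at -0.074 ± 0.11, Psd3 at 0.0048 ± 0.10 and Abr at 0.10 ± 0.15.

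Without LPS, 0 of the 7 passed in the striatum by edgeR (1 at an unadjusted p under 0.05, 0 by DESeq2; 0% of all genes passed). Tcf4 was at -0.72 ± 0.30 (SE) and Olfml2b at -1.17 ± 0.61 (SE) in MOR-SAL against SAL-SAL, where libraries 3-2 and 3-4 of SAL-SAL held 1128 and 998 CPM of Tcf4 against a group median of 218 CPM. The same 2 libraries held the most Slc17a7 of their group, 72.4 and 109 CPM, the next being 12.2 CPM, and its part in the result was not tested. The smallest adjusted p of the 3 regions came from MOR-LPS against MOR-SAL, for Slc27a1 at 0.62 ± 0.18 (SE; edgeR adjusted p = 0.0592) and Sbf1 at 0.59 ± 0.17 (SE; edgeR adjusted p = 0.0647), the pair that DESeq2 passed. The median over all genes in that contrast was 0.11. Glial markers moved in the same contrast: 3 of the 4 astrocyte markers tested passed as higher, Aldh1l1 at 2.49 ± 0.58 (SE; edgeR adjusted p = 0.0243), Aqp4 at 2.09 ± 0.55 and Slc1a3 at 1.58 ± 0.42, as did 1 of 4 microglia markers, C1qa at 4.84 ± 1.10 (SE; edgeR adjusted p = 0.0198). The 5 astrocyte markers summed to between 15.1 and 40.4 CPM in MOR-SAL and between 20.6 and 329 CPM in MOR-LPS, with Gfap listed at 0 in every striatal library, and their part in the result was not tested. Slc27a1 there stood at 19.6, 40.0 and 42.3 CPM in the 8 MOR-SAL libraries and at 25.4, 47.0 and 103 CPM in the 18 MOR-LPS libraries, with overlap.

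**Figure D4:**
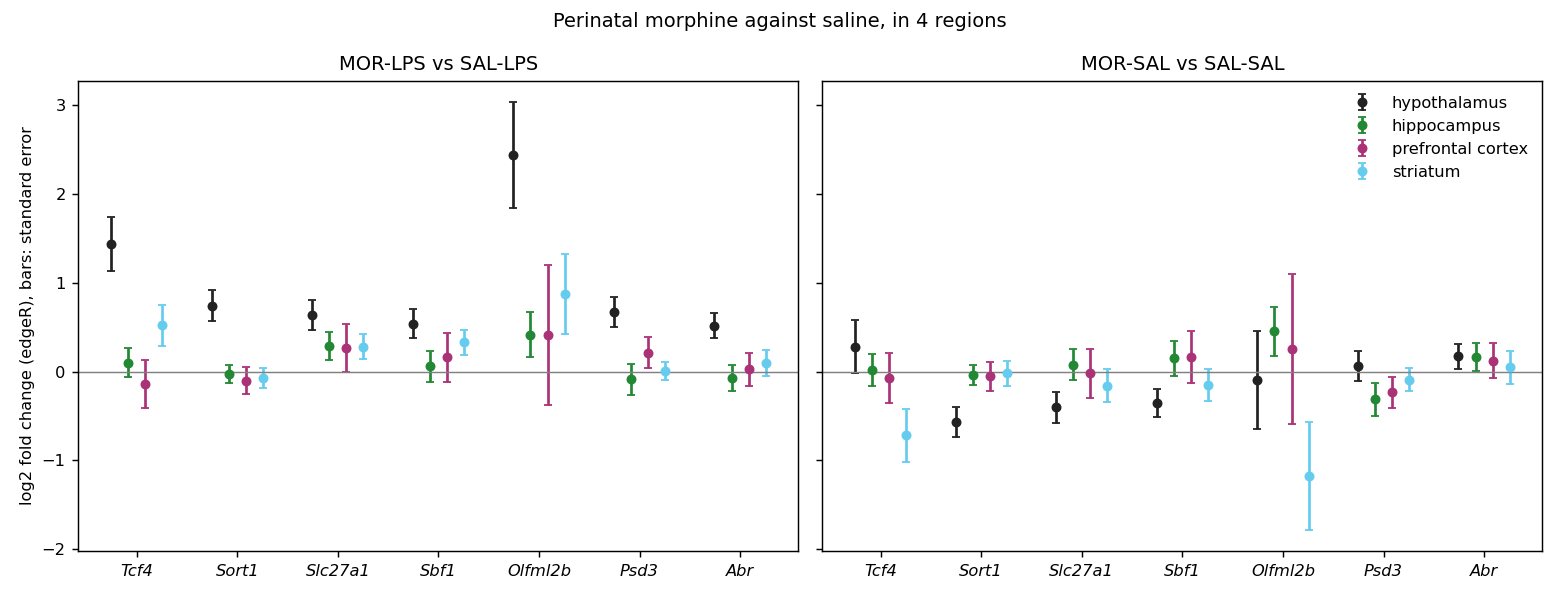
Log2FC with standard errors for each gene in hypothalamus, hippocampus, prefrontal cortex and striatum, for MOR-LPS against SAL-LPS (left) and MOR-SAL against SAL-SAL (right). All 7 hypothalamic points on the left lie above 0, by 0.52 to 2.44, in the contrast that chose the genes, and the other regions lie between -0.14 and 0.88.

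The regions also differed in how much of each gene they held, on tables that were normalized separately, so the levels are a description. Counting may also have differed between tables, as Xist was counted in the hypothalamic one alone. The neuronal marker Rbfox3 had a median of 141 CPM in the hypothalamus, 1351 in the hippocampus and 2132 in the prefrontal cortex. The part of counting in the levels was not tested. Tcf4 had a median of 94.3 CPM in the hypothalamus, 215 in the striatum, 479 in the prefrontal cortex and 1462 in the hippocampus, and the ranges over libraries overlapped between every neighboring pair of that order. Olfml2b had a median of 74.3 CPM in the hippocampus and of 3.11 to 6.93 CPM in the other 3 regions. Slc27a1 was highest in the hypothalamus at 85 CPM and at 42.3 to 56.9 CPM elsewhere. Per kilobase of exon, Abr had the highest median of the 7 over all libraries of each of the 4 regions, from 30.6 to 56.7 CPM per kb, with Tcf4 next in the hippocampus at 53.4. In the hypothalamus Abr and Sbf1 were close, at 34.2 and 33.4 CPM per kb, and in SAL-SAL alone the order turned, with Sbf1 at 34.6 and Abr at 33.7.

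Relations between the genes and the summed marker lists across libraries were looked for after the values were seen, with 20000 permutations, so that 5e-05 is the smallest p they can give. Values were centred on condition and sex, and of 308 relations over 11 marker lists and 4 regions 76 passed an adjusted p of 0.05 for r. The share over all genes is not given beside that count, so it is not read as a trait of the 7. In the hypothalamus the libraries include those that chose the genes. Olfml2b in the hippocampus followed the summed dentate and hippocampal markers with r = 0.85 and rho = 0.77 (n = 53, permutation p = 5e-05 for both, adjusted p = 0.000856 for r), and r was 0.77 without the 2 farthest libraries. Abr did so with r = 0.81 and rho = 0.84 (permutation p = 5e-05 for both, adjusted p = 0.000856 for r), and r was 0.85 without those. In the hypothalamus the same list gave r = 0.65 and rho = 0.51 for Olfml2b and r = 0.59 and rho = 0.57 for Abr (n = 48; permutation p for r = 5e-05, adjusted p = 0.000856 for both), with r of 0.62 and 0.57 without 2 libraries. Zbtb20 alone averaged 261 CPM in SAL-SAL and 637 CPM in MOR-LPS there, against median sums of 271 and 535 CPM for the list. The relation may thus be largely one with Zbtb20, which was not tested. The labels name no dissection or sort batch, and no marker in the lists is one of the 7 genes.

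Tcf4 followed the cortical excitatory markers in the prefrontal cortex with r = 0.84 and rho = 0.79 (n = 45, permutation p = 5e-05 for both, adjusted p = 0.000856 for r; r = 0.84 without 2 libraries) and ran against the striatal projection neuron markers there with r = -0.81 and rho = -0.84 (permutation p = 5e-05 for both, adjusted p = 0.000856 for r; r = -0.82 without 2 libraries). With Slc17a7 alone in that region Tcf4 gave r = 0.76 and rho = 0.67, also centred. In the hypothalamus Tcf4 followed the cortical excitatory markers with r = 0.55 and rho = 0.44 (n = 48, permutation p = 0.0001 and 0.00185, adjusted p = 0.00134 for r; r = 0.45 without 2 libraries). Over the 34 libraries of the conditions other than MOR-LPS, Tcf4 and Slc17a7 in the hypothalamus gave r = 0.17 and rho = 0.042 (permutation p = 0.323 and 0.817).

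In the hypothalamus Slc27a1 followed the astrocyte markers with r = 0.51 and rho = 0.55 (n = 48, permutation p = 0.00045 and 5e-05, adjusted p = 0.00385 for r; r = 0.57 without 2 libraries), and oligodendrocyte and microglia markers with r of 0.47 and 0.48 (adjusted p for r = 0.00557 for both). In the striatum it followed the astrocyte markers with r = 0.46 and rho = 0.44 (n = 54, permutation p = 0.0004 and 0.001, adjusted p = 0.00362 for r; r = 0.43 without 2 libraries). With cortical excitatory markers in the hypothalamus it was at r = -0.056. Psd3, the ARF6 exchange factor, followed the neuronal markers (Rbfox3, Snap25, Syt1, Map2) at r = 0.57 in the hypothalamus, 0.65 in the hippocampus and 0.59 in the striatum (adjusted p for r of 0.00134, 0.000856 and 0.000856).

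**Figure D5:**
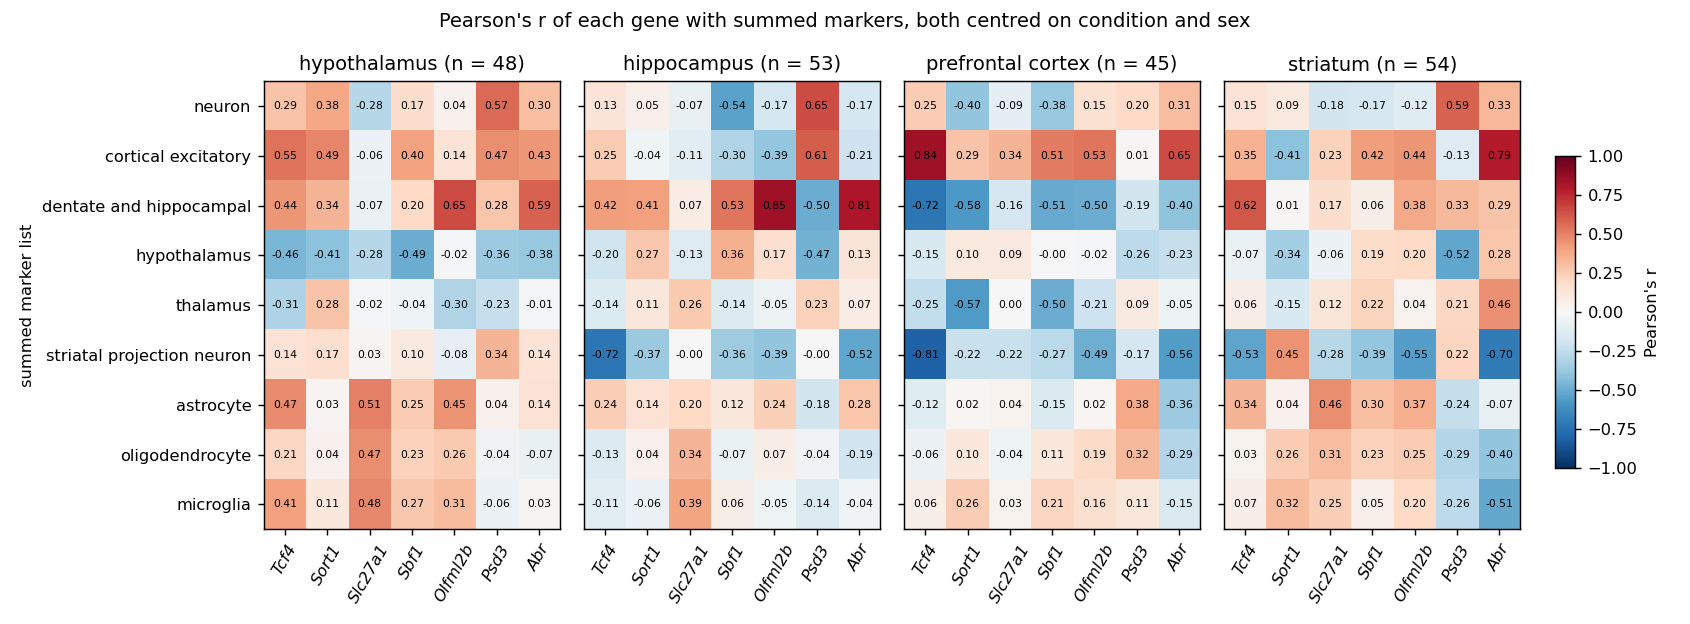
Pearson's r of each gene with 9 of the 11 summed marker lists in each region, both centred on condition and sex, from -1 (blue) to 1 (red). Tcf4 with cortical excitatory markers in prefrontal cortex (0.84) and Olfml2b and Abr with dentate and hippocampal markers in hippocampus (0.85 and 0.81) are the deepest red, and Slc27a1 is reddest with glial lists in the hypothalamus (0.47 to 0.51).

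The genes whose levels ran most like each of the 7 over the 48 hypothalamic libraries also differed. For Tcf4 they were Nfib (r = 0.86), the cortical transcription factor gene Neurod6 (0.83) and Schip1 (0.82). For Sort1 they were the NMDA receptor subunit gene Grin2a (0.75), Il1rap (0.73), which encodes the accessory chain of the interleukin-1 receptor, and Faah (0.72), the endocannabinoid hydrolase. For Slc27a1 they were Srebf1 (0.78), which encodes the sterol regulatory factor SREBP1, and Sec14l5 (0.77). For Olfml2b they were Zbtb20 (0.77), itself one of the dentate and hippocampal markers, Ip6k2 (0.77) and Dock10 (0.73), for Abr Fam131a (0.81), Abi2 (0.73) and Enc1 (0.73), for Sbf1 Sesn1 (0.72), Ski (0.72) and Actn4 (0.70), and for Psd3 Mical2 (0.68), Mmd (0.68) and Dclk1 (0.66).

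Relatives and partners of the 7 genes were listed by family and binding, 85 in all. In the hypothalamus 2 of 84 tested passed between MOR-LPS and SAL-LPS, where 1.03% of all genes passed, and 0 passed with filterByExpr. Both were higher: Bdnf, the neurotrophin that sortilin carries, at a log2FC of 1.26 ± 0.34 (SE; edgeR adjusted p = 0.0474), and Olfm1, an olfactomedin family gene, at 0.79 ± 0.21 (SE; edgeR adjusted p = 0.0471). The 12 E protein partners tested for Tcf4 had a median log2FC of 0.70 with 0 passing by edgeR (3 at an unadjusted p under 0.05, against 13.9% of all genes), and the 14 tested of the fatty acid list had a median of -0.042 with 0 passing (1 at an unadjusted p under 0.05).

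Between MOR-LPS and MOR-SAL in the hypothalamus 9 of 84 relatives passed, 8 of them higher, where 6.27% of all genes passed. Among the E protein partners these included Neurod6 at 3.34 ± 0.73 (SE), Id3 at 3.41 ± 0.88 and Neurod2 at 3.09 ± 0.83, of which Neurod6 and Neurod2 are also in the cortical excitatory list. Kalrn, a GTPase exchange factor gene, was at 1.01 ± 0.28 (SE), Olfm1 at 0.91 ± 0.20 and Cyth4, an ARF exchange factor gene, at 2.17 ± 0.55. In the hippocampus 3 of 82 passed between MOR-LPS and SAL-LPS, where 2.73% of all genes passed, and the count was 1 with DESeq2 and 0 with filterByExpr. They were Bcr, the relative of Abr, at -0.57 ± 0.17 (SE), the myotubularin gene Mtmr7 at -0.43 ± 0.12 and the olfactomedin gene Myoc, which had 0 counts in every SAL-LPS library and a mean of 0.21 ± 0.45 CPM (SD, n = 16) in MOR-LPS, so that no fold is given. In the prefrontal cortex and striatum 0 of 83 passed in that contrast by edgeR (13 and 8 at an unadjusted p under 0.05, 0 and 0 by DESeq2).

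Animals that gave both a hypothalamic and another library allowed a last comparison, chosen after the values were seen. With log2(CPM + 1) centred on condition and sex, Slc27a1 in the hypothalamus followed Slc27a1 in the striatum of the same 34 animals with r = 0.63 and rho = 0.65 (two-sided permutation p = 8e-05 and 4e-05, adjusted p for r = 0.00192 over 24 relations), and r was 0.60 without 2 animals. With the hippocampus it was at r = 0.39 and rho = 0.41 (n = 34, permutation p = 0.0209 and 0.0173, adjusted p for r = 0.251). None of the other 6 genes, nor Slc17a7, passed between the hypothalamus and any other region, the smallest of their adjusted p being 0.366 (Sort1, striatum). Littermates share their early exposure, so the 34 animals are not fully independent.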

How the data were processed

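RNA was measured by a modified Smart-seq3 protocol in NeuN-positive nuclei. Per the submitters' processing notes the authors trimmed reads with Trim Galore 0.6.7 and aligned them to mm10 with STAR 2.7.10a, and HTSeq 0.12.4 and DESeq2 1.40.2 are also named. The authors deposited raw counts per gene, 1 table per region with 46403 genes, which were used here as deposited, and whether strand was used in counting is not given in the sources used here. Xist was counted in 50 of 51 hypothalamic libraries and in 0 libraries of the other 3 regions, so counting may have differed between tables. The deposited CPM tables were not used.

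Each region was fitted on its own with edgeR 4.0.16 (R 4.3.3): TMM normalization, genes with a total count above 10, condition and sex in the model, the quasi-likelihood test and Benjamini-Hochberg adjustment over all genes tested. Libraries were grouped by their labels, each being 1 animal. Levels are TMM-normalized CPM, and log2(CPM + 1) was used for correlations, tested by permutation with 100000 resamples (20000 for marker lists). The differential fits (edgeR and its variants, DESeq2, limma-voom, the block and the Slc17a7 covariate) were tested on simulated counts. Alternatives were DESeq2 1.42.0, its size factors, edgeR's filterByExpr, limma-voom (3.58.1) with a correlation within the leading number of the replicate label, that number as a block, removal of shallow or sex-discordant libraries, each library or leading number left out, and Slc17a7 or astrocyte markers as covariates. Identical libraries were looked for and 0 pairs were found. Counting error sets the precision of low values: a count of 0 allows up to 3 counts, covering counting error only.

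The genes and the lists were chosen with earlier results of these data known. Named relatives and markers are, for each list, region and contrast described, at most the 3 with the smallest adjusted p among those that passed; for each of the 7 genes, the 3 genes with the highest correlation over hypothalamic libraries, at a mean of at least 5 CPM, are named. Some genes that these rules would name are not reported here. Gene positions came from GENCODE for mm10, and start-site sequences from RefSeq on GRCm38.p6, whose table held 4 of the 7 genes. Each leading number occurs within 1 early exposure only, and what it stands for is not given in the sources used here.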

Additional observations from a re-analysis of the deposited data

Results flagged for a closer look

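Of the 7 genes in each of the 3 groups with 4 to 10 libraries, 21 sets of values in all, 2 held a library far from the others by Dixon's test, which chance would flag in about 1 of 20. Both were the SAL-SAL prefrontal cortex library 5-1: Sort1 was at 106 CPM there against 182 CPM in the next lowest of the 10 libraries, and Abr at 128 CPM against 362 CPM. That library had 9076969 counts, and Slc17a7 was at 1.37 CPM in it against a group median of 167 CPM, so its low values do not coincide with low depth. The part of its tissue makeup was not tested.

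In the hypothalamus the edgeR interaction term (the LPS response after morphine minus that after saline) was past the threshold for 3 of the 7 genes: Sort1 at 1.31 ± 0.24 (SE), Slc27a1 at 1.04 ± 0.24 and Sbf1 at 0.89 ± 0.22, where 3.8% of all genes passed. The term holds the contrast that chose the genes, so these values are a description and not independent evidence of a difference. With the leading number of the replicate label as a block Sort1 alone passed, and limma-voom or both covariates left 1 call. Oligodendrocyte markers differed in the same interaction, Mobp by 2.90 ± 0.65 (SE; edgeR adjusted p = 0.00729), as did the choroid plexus gene Ttr by 7.68 ± 1.31 (SE; edgeR adjusted p = 0.00154). Their part in the result was not tested.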

How the results depend on the processing

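No calls of the 7 genes appeared in hippocampus or prefrontal cortex under any alternative run. In the hypothalamus, MOR-LPS against SAL-LPS (6 called) had 0 called with filterByExpr, without the sex-discordant libraries, without the libraries high in Slc17a7 and with both covariates, and 1 with Slc17a7 or with the astrocyte markers alone. With filterByExpr the log2FC did not move by more than 0.01 and fewer genes were tested, and the cause of the other changes was not tested. MOR-SAL against SAL-SAL (0 called) had 1 with DESeq2, with its size factors, without the libraries high in Slc17a7 and with both covariates. SAL-LPS against SAL-SAL (0) had 1 with DESeq2. MOR-LPS against MOR-SAL (5) had 3 with voom, 1 with Slc17a7, 1 with astrocyte markers, 0 with both and 0 without the libraries high in Slc17a7. The interaction (3) had 1 with voom and 1 with both covariates. In the striatum, MOR-LPS against MOR-SAL (0) had 2 with DESeq2.

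The leading number of the replicate label, which the labels do not call a litter, could be fitted as a replicate block only within 1 early exposure, so for the LPS responses and the interaction: calls went from 5 to 1 for MOR-LPS against MOR-SAL and from 3 to 1 for the interaction, and no other count of calls changed. Libraries that share it did not deviate together (correlations of -0.049 to 0.029 over the 4 regions). Olfml2b in SAL-LPS against SAL-SAL turned from -0.38 to 0.20 with the block.

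Signs turned mostly for differences close to 0 or for scarce Olfml2b, and for Tcf4 in the hypothalamic interaction (1.16 ± 0.42, SE). In MOR-SAL against SAL-SAL of the hypothalamus Olfml2b (-0.10) was at 1.24 with voom, 0.46 with Slc17a7, 0.059 without the libraries high in it, 0.75 with astrocyte markers and 1.28 with both, and Psd3 (0.07) at -0.045 without shallow libraries. Leaving out each library or leading number gave Olfml2b from -0.42 to 0.64, the highest without library 4-1, Psd3 from -0.0075 to 0.15 and Sort1 from -0.69 to -0.47, with Sort1 called in 2 of 25 library fits and in 1 of 17 fits without a leading number. In SAL-LPS against SAL-SAL Olfml2b was at 1.36 with voom, 0.17 with astrocyte markers and 0.47 with both covariates. With both covariates, Olfml2b was at -0.23 and Abr at -0.077 in MOR-LPS against MOR-SAL, and Tcf4 at -0.57 and Olfml2b at -0.71 in the interaction. Abr in MOR-LPS against MOR-SAL was at -0.091 without the libraries high in Slc17a7. In the hippocampus, MOR-LPS against SAL-LPS, Sort1 was at 0.0038 with DESeq2, 0.0039 with its size factors, 0.052 without sex-discordant libraries and 0.012 with voom, and Abr at 0.036 with voom. In the prefrontal cortex Abr was at -0.078 without shallow libraries (MOR-LPS against SAL-LPS), and in MOR-SAL against SAL-SAL Tcf4 was at 0.046 with Slc17a7, Slc27a1 at 0.066 without sex-discordant libraries, 0.022 with voom and 0.031 with Slc17a7, and Olfml2b at -0.21 with voom. In the striatum Psd3 was at -0.025 with filterByExpr.

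Leaving out 1 of 26 libraries in MOR-LPS against SAL-LPS of the hypothalamus kept Tcf4 between 1.26 and 1.60 and past the threshold in 25 fits, Sort1 between 0.65 and 0.81 in 24, Olfml2b between 1.99 and 2.54 in 23, Psd3 between 0.62 and 0.74 in 15, Slc27a1 between 0.58 and 0.69 in 6 and Abr between 0.43 and 0.56 in 6. Leaving out 1 of 15 leading numbers kept 7, 6, 6, 6, 0 and 0 of the 15 fits past it. Over all 51 libraries r with Slc17a7 was 0.072 for Sort1, 0.055 for Sbf1, 0.069 for Psd3, -0.082 for Slc27a1 and -0.041 for Abr.

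The count of relatives called was 0 with filterByExpr for MOR-LPS against SAL-LPS in hypothalamus and hippocampus and for the interaction in hypothalamus, hippocampus and prefrontal cortex. With DESeq2 it was 1 in the hippocampus for MOR-LPS against SAL-LPS and for SAL-LPS against SAL-SAL and 0 for the interaction, 1 in the prefrontal cortex for MOR-SAL against SAL-SAL and for MOR-LPS against MOR-SAL, and in the striatum 3 for MOR-LPS against MOR-SAL and 1 for the interaction.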
